A study of Mus musculus with 4 samples.

Results

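Oligodendrocyte lineage genes were followed from precursor to myelin in cerebrum RNA of mice that lack the lysolipid transporter gene Mfsd2a in vascular endothelium. Each of 4 groups was measured as 1 pooled sample on 1 Affymetrix Mouse 430 2.0 array, and each pool held equal amounts of RNA from 5 to 6 hemi-cerebrums. All 4 pools came from mice with floxed Mfsd2a alleles (Mfsd2afl/fl). The 2aECKO mice also carried Tie2-cre, a driver active in endothelium and, as is known of this driver, in blood cell lineages, and were compared with 2afl/fl mice without cre, both pools at postnatal day 9. The 2aiECKO mice carried Cdh5ERT2-cre, an endothelial driver that 4-hydroxytamoxifen (4-OHT) switches on after birth, and were compared with 2afl/fl mice given 4-OHT, both pools at postnatal day 8. For the 2aiECKO pool 1 label, the source name, gives 2aECKO instead; the title and genotype were followed here.

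The members were 34 genes named by their place in the lineage. Of these, 32 were matched to a probe set annotated with 1 gene symbol, and 26 had a mean signal of at least 50 over the 4 arrays, out of 12426 such genes among 18194 named. Trf and Enpp2 were not matched and are not analysed here. Nkx6-2, Mog, Ermn, Opalin, Gjc3 and Gjb1 stayed below the minimum. Just inside it was Aspa with a mean signal of 73.5, and just outside it was Opalin with 36.9. With 1 array per group there was no test, no error over animals and no p-value for any difference. The robust SD of the log2 folds of all 12426 genes, 0.12 in 2aECKO and 0.10 in 2aiECKO, serves below only as a scale.

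Oligodendrocytes arise from dividing precursor cells that carry the growth factor receptor Pdgfra and the proteoglycan encoded by Cspg4. Precursors that commit to differentiation pass through a short premyelinating state, marked by the receptor Gpr17 and then by Enpp6 and Bcas1, before they make myelin proteins such as Mbp and the galactolipids of the myelin sheath. In the mouse forebrain this programme starts around birth and myelin genes climb steeply in the days sampled here. A pool of whole tissue cannot tell fewer cells of a type from less RNA per cell.

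The median signal was 74.1 and 75.5 in 2afl/fl and 2aECKO against 48.7 and 49.2 in the 4-OHT control and 2aiECKO, so folds were taken only within pairs, each of which has its own scale. Mfsd2a had signals of 423 in 2afl/fl, 410 in 2aECKO, 369 in the 4-OHT control and 299 in 2aiECKO. The small difference in the day 9 pair is no check of the 2aECKO label in either direction: the sources used here do not say whether the probe set lies in the deleted part. The defining genes of the lineage were measured on every array: Pdgfra between 994 and 1311, Gpr17 between 653 and 849 and Mbp between 2706 and 5806. Mog, a late myelin gene, was near the low end of the scale, with signals of 21.1, 19.1, 7.95 and 8.93 in 2afl/fl, 2aECKO, the 4-OHT control and 2aiECKO.

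The 4 member genes of committed, premyelinating oligodendrocytes had log2 folds above 0 in both endothelial knockouts. Of 10 myelin genes 9 were above 0 in 2aiECKO and 4 in 2aECKO. The precursor members, Pdgfra and Cspg4, were below 0 in both. Pdgfra had only -0.01 in 2aECKO, and a second probe set of Cspg4 gave 0.06 there. Of 11 other precursor genes 7 were above 0 in each model. Of all genes 46.3 percent were above 0 in 2aECKO, 46.4 percent in 2aiECKO and 28.2 percent in both. A gene was called higher where its knockout signal reached 50 and stood at least 25 percent above the control, a log2 fold of 0.32, and lower where the control reached 50 and stood as far above the knockout. In 2aECKO 3 of 26 members were higher by this rule, Nkx2-2, Enpp6 and Bcas1, against 2.04 percent of all genes, and 1 was lower, Mobp, against 1.44 percent. In 2aiECKO 2 were higher, Bcas1 and Mbp, against 1.77 percent of all genes, and 0 were lower, against 0.523 percent. So most members, 22 in 2aECKO and 24 in 2aiECKO, differed from their control by less than this threshold.

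In 2aECKO the 26 members had a median log2 fold of 0.03, beside -0.01 for all genes, and in 2aiECKO one of 0.17, beside 0.00. In 2aECKO 16 of the 26 were above 0, against 46.3 percent of all genes, and in 2aiECKO 22 were, against 46.4 percent. The 16 genes above 0 in 2aECKO were also above 0 in 2aiECKO, a state that 28.2 percent of all genes shared. With the log2 signal averaged over every probe set of each gene, 1 member was higher and 0 were lower in 2aECKO, and 0 were higher in 2aiECKO. At a fold of 1.5 no member was called in either, against 0.249 and 0.274 percent of all genes higher and 0.0724 and 0.0161 percent lower.

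**Figure D1:**
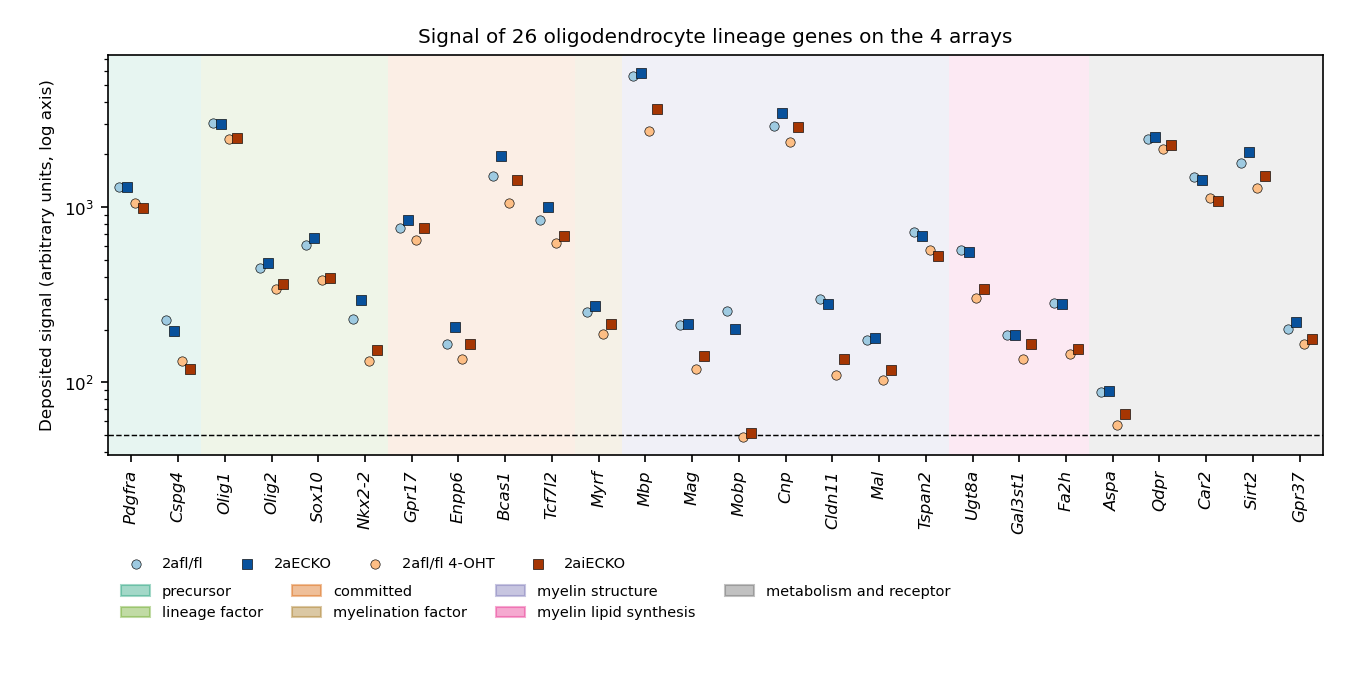
Deposited signal (log axis) of the 26 members of mean signal of at least 50 on the 4 arrays, 1 point per pooled array; circles are controls, squares are knockouts, background colours mark the role of each gene and the dashed line marks a signal of 50. Blue points (day 9 pair) lie above orange points (day 8 pair) for most genes, and the pairs are on different scales; Mobp has the widest gap, from 254 in 2afl/fl to 48.5 in the 4-OHT control.

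The precursor members were Pdgfra and Cspg4. Pdgfra, whose product receives the platelet-derived growth factor that keeps precursors dividing, had signals of 1311 in 2afl/fl, 1298 in 2aECKO, 1056 in the 4-OHT control and 994 in 2aiECKO. Each knockout pool was slightly below its control, with log2 folds of -0.01 and -0.09. Cspg4, which encodes the NG2 proteoglycan and is also made by pericytes, had signals of 226, 196, 133 and 119 in the same order. Both knockouts were again below their control, by log2 folds of -0.20 and -0.15. A second probe set of Cspg4, of mean signal 145, gave 0.06 and -0.09, so the sign in 2aECKO depended on the probe set.

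The transcription factors that set lineage identity differed among themselves. Olig1, needed for differentiation and repair, had signals of 3033 in 2afl/fl, 2999 in 2aECKO, 2444 in the 4-OHT control and 2468 in 2aiECKO, log2 folds of -0.02 and 0.01. Olig2, which specifies the lineage, had log2 folds of 0.11 and 0.08, and Sox10, which drives myelin genes throughout the lineage, had 0.13 and 0.03. Nkx2-2, a homeodomain factor that rises when precursors start to differentiate, had signals of 230, 296, 132 and 152. Both knockouts were above their control, and the log2 folds of 0.37 and 0.20 were the largest of the 4 factors in each comparison. Among all genes Nkx2-2 ranked 185 from the top in 2aECKO and 775 in 2aiECKO. It has a single probe set, so no second measurement on the same arrays exists for it.

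The 4 genes of committed cells were above 0 in both knockouts, with median log2 folds of 0.29 and 0.26. Of them 2 were called higher in 2aECKO and 1 in 2aiECKO, against 2.04 and 1.77 percent of all genes. Over 10 astrocyte markers the medians were of like size, 0.27 and 0.30, and their part in the result was not tested. Bcas1, a cytoskeleton-linked protein of early myelinating cells, had signals of 1505 in 2afl/fl, 1964 in 2aECKO, 1063 in the 4-OHT control and 1423 in 2aiECKO. It was the only member called higher in both comparisons, against 0.547 percent of all genes, with log2 folds of 0.38 and 0.42 and ranks of 152 and 102 among all genes. Its other 2 probe sets were below the minimum, 1 of mean signal 28.0 with log2 folds of 0.24 in both models and 1 of mean signal 32.8 with 0.12 and 0.20. Averaged over all its probe sets Bcas1 had 0.25 and 0.29, short of the threshold. Enpp6, averaged in the same way, had 0.18 in 2aECKO and was also short of it.

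Enpp6, a choline phosphodiesterase that marks newly forming oligodendrocytes, had signals of 165, 207, 135 and 166 in 2afl/fl, 2aECKO, the 4-OHT control and 2aiECKO. Both knockouts were above their control, with log2 folds of 0.33 and 0.29. Its second probe set, of mean signal 53.9, gave 0.04 in 2aECKO and 0.32 in 2aiECKO, so the call in 2aECKO rests on 1 probe set. Gpr17, a receptor of the premyelinating state that restrains further maturation, had signals of 760, 849, 653 and 761. Both knockouts were above their control, by log2 folds of 0.16 and 0.22, short of the threshold.

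Tcf7l2, a Wnt pathway factor present in differentiating oligodendrocytes and also in thalamic neurons, had signals of 844, 1003, 625 and 688 and log2 folds of 0.25 and 0.14. Its 4 probe sets all gave folds above 0, from 0.04 to 0.25 in 2aECKO and from 0.14 to 0.34 in 2aiECKO. Over 9 markers of thalamus the median log2 folds were 0.07 and 0.06, and their part in the Tcf7l2 value was not tested. The summed signal of these 9 markers was 3715 in 2afl/fl, 4034 in 2aECKO, 3611 in the 4-OHT control and 3761 in 2aiECKO, and no marker was at 0. Slc17a6, a glutamate transporter gene of thalamus, had log2 folds of 0.17 and 0.08, Prkcd of -0.05 and -0.09, and Lef1 of 0.01 and 0.06. Of the 9 markers 7 were above 0 in 2aECKO and 6 in 2aiECKO, against 46.3 and 46.4 percent of all genes. In 2aECKO 1 was called higher, against 2.04 percent of all genes, and 0 were in 2aiECKO, against 1.77 percent. The 1 called higher was Lhx9, named after its values were seen, with 0.42 and 0.15.

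**Figure D2:**
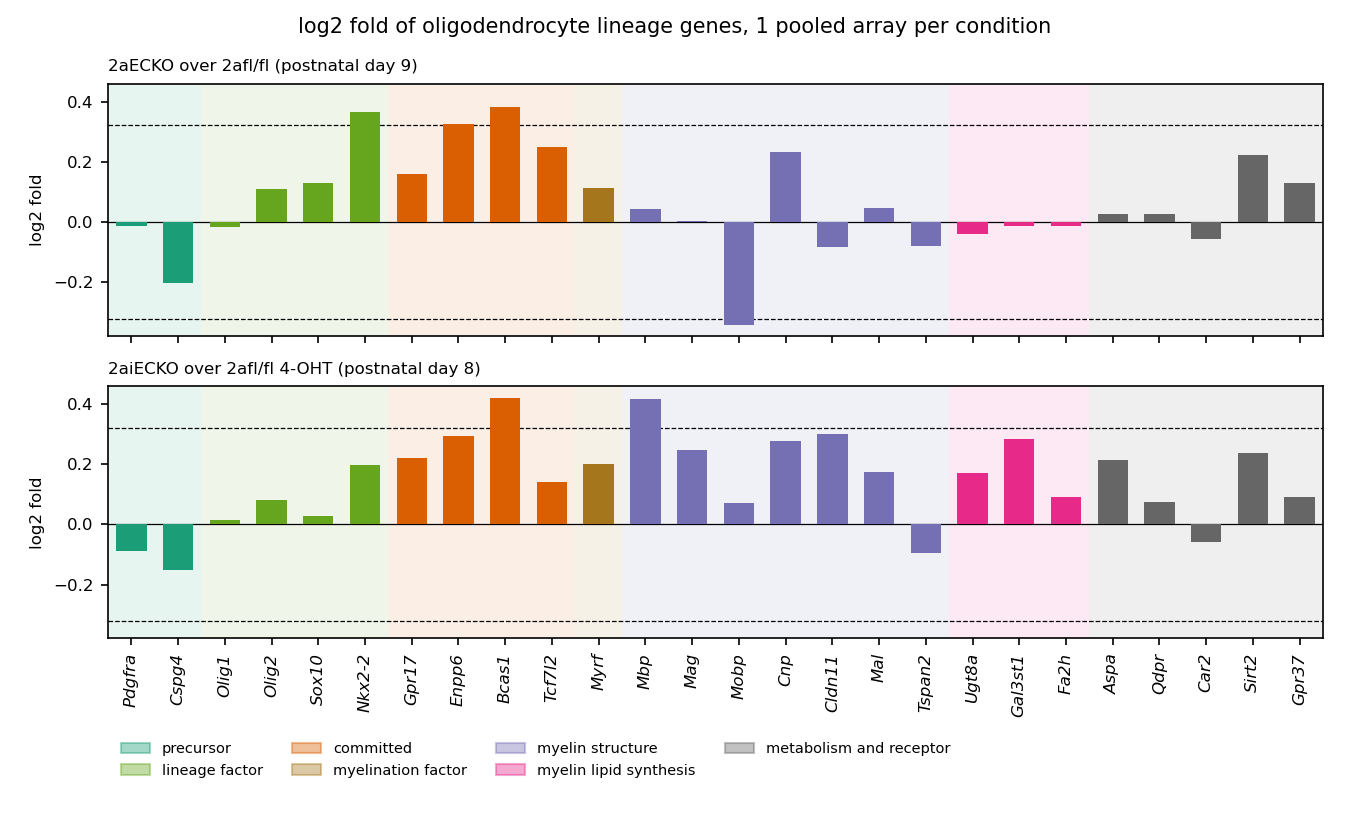
log2 fold of each member in 2aECKO over 2afl/fl (upper panel) and in 2aiECKO over the 4-OHT control (lower panel), 1 pooled array per condition and therefore no error bars; colours mark the role of each gene and dashed lines mark a difference of 25 percent. The committed genes (orange) are above 0 in both panels, while Mbp, Mag, Cldn11 and Gal3st1 are near or below 0 above and between 0.25 and 0.42 below.

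The folds of the myelin members differed between the models. Of the 13 genes of myelin structure and myelin lipid synthesis, 10 had sufficient signal, and in 2aECKO their median log2 fold was -0.01, while in 2aiECKO it was 0.21. In 2aECKO 4 of the 10 were above 0, near the 46.3 percent of all genes. In 2aiECKO 9 were, against 46.4 percent, the exception being Tspan2. The fold in 2aECKO minus that in 2aiECKO had a median of -0.23 over these 10 genes, where the median of all genes was 0.00 and their robust SD 0.12. For 3 of the 10, Mbp, Mobp and Cldn11, the fold in 2aiECKO exceeded that in 2aECKO by at least 25 percent, against 2.11 percent of all genes. No member went the other way by that size, against 1.49 percent of all genes. The 20 other genes of myelinating cells that were measured had a median difference of only -0.06, with 2 of 20 larger in 2aiECKO by that size, and 8 microglial markers had one of -0.37, with 7 of 8. The model differs together with age, cre driver, 4-OHT, the sex makeup of the pools and the array pair with its own signal scale. These cannot be told apart here.

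Mbp, the main cytoplasmic protein of compact myelin, had signals of 5629 in 2afl/fl, 5806 in 2aECKO, 2706 in the 4-OHT control and 3613 in 2aiECKO. The pools of the day 9 pair were alike, while 2aiECKO was above its control. The log2 folds were 0.04 and 0.42, the latter rank 104 of all genes. Mbp has 8 probe sets of sufficient signal. In 2aiECKO 6 of them gave between 0.32 and 0.42, and the other 2, of mean signal 158 and 539, gave -0.04 and -0.08. In 2aECKO the 8 lay between -0.20 and 0.06. The sources used here do not say which transcript forms of Mbp each probe set reads.

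Mobp, a late protein of compact myelin, had signals of 254 in 2afl/fl, 201 in 2aECKO, 48.5 in the 4-OHT control and 51.0 in 2aiECKO. It was lower in 2aECKO than in its control, with a log2 fold of -0.34, and near its control in 2aiECKO, with 0.07. The day 8 pools were close to a signal of 50, and Mobp passed the minimum through its day 9 pools. All 4 of its probe sets of sufficient signal were below 0 in 2aECKO, from -0.42 to -0.32. In 2aiECKO they ran from -0.07 to 0.33. Another probe set, of mean signal 20.6, gave 0.05 and -0.23, and with it in the mean Mobp was no longer called lower.

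Cldn11, which forms the tight junctions between myelin layers, had signals of 297, 281, 110 and 136 in 2afl/fl, 2aECKO, the 4-OHT control and 2aiECKO. Its log2 folds of -0.08 and 0.30 had opposite signs. Mag, an adhesion protein of the inner myelin membrane, had signals of 213, 214, 119 and 141 and log2 folds of 0.00 and 0.25. Both genes have a single probe set and stayed short of the threshold in each model.

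Cnp, an enzyme that keeps cytoplasmic channels open in myelin and is made from the premyelinating state on, had the highest fold of the measured structural genes in 2aECKO. Its signals were 2914 in 2afl/fl, 3428 in 2aECKO, 2370 in the 4-OHT control and 2875 in 2aiECKO, log2 folds of 0.23 and 0.28. All 3 probe sets were above 0 in both models, from 0.10 to 0.23 in 2aECKO and from 0.27 to 0.30 in 2aiECKO. Mal, a lipid raft protein of myelin, had log2 folds of 0.05 and 0.17, and Tspan2, a tetraspanin, had -0.08 and -0.10, with all 3 probe sets of Tspan2 below 0 in both.

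Genes of myelin lipid synthesis followed the structural genes. Ugt8a, which makes galactosylceramide, had signals of 571, 556, 302 and 340 in 2afl/fl, 2aECKO, the 4-OHT control and 2aiECKO, and log2 folds of -0.04 and 0.17. Gal3st1, which sulphates that lipid, had signals of 187, 185, 135 and 165 and log2 folds of -0.01 and 0.28. Fa2h, which hydroxylates its fatty acid, had 283, 280, 145 and 155 and log2 folds of -0.01 and 0.09. The 3 genes were thus within 0.04 of their control in 2aECKO and above it in 2aiECKO, in each case by less than the threshold. Myrf, the transcription factor that switches on the myelin genes, had signals of 253, 274, 188 and 216 and log2 folds of 0.11 and 0.20.

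**Figure D3:**
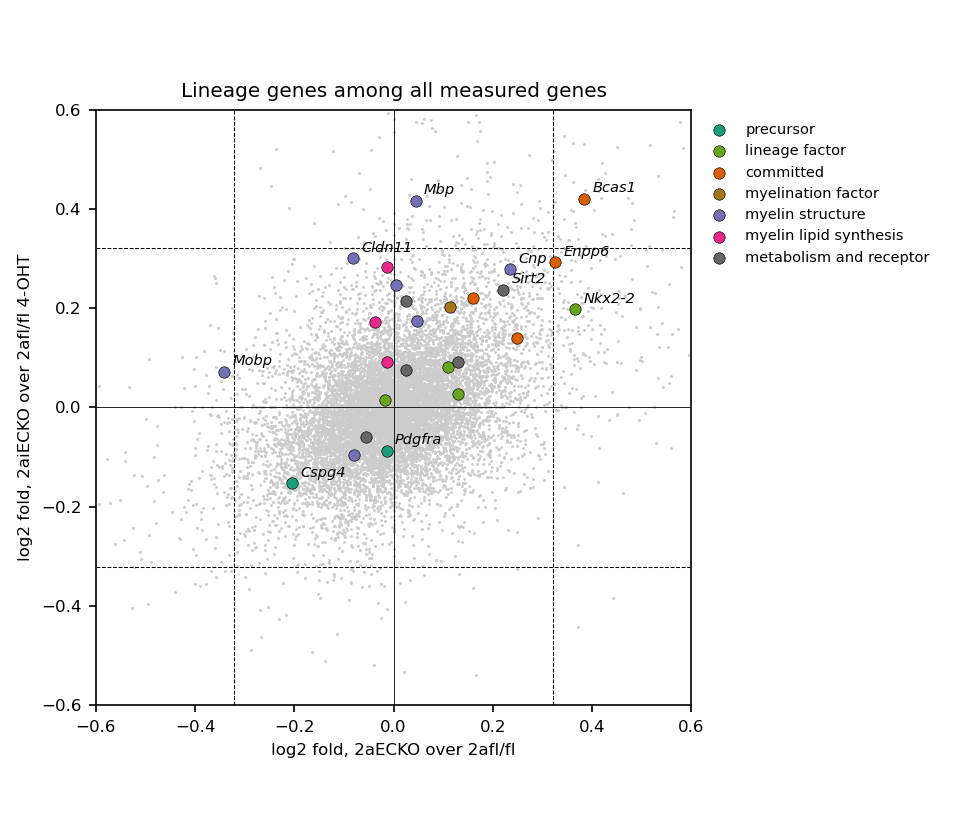
log2 fold in 2aECKO over 2afl/fl (horizontal) against that in 2aiECKO over the 4-OHT control (vertical) for 12426 genes (grey) and the 26 members (coloured by role), 1 pooled array per condition; dashed lines mark a difference of 25 percent, and 63 genes beyond 0.6 on either axis are not drawn. Bcas1 lies beyond both upper lines, Mbp beyond the upper horizontal line near 0 on the other axis, and Mobp beyond the left line.

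The promoters of 3 members are shown as examples of the contrasts above. They are Enpp6 of the committed state, Cnp, above its control in both models, and Mobp, below its control in 2aECKO. No promoter window was found for Bcas1 or Mbp. Each sequence is the 250 bases before the RefSeq start of the gene on GRCm38.p6. It runs from 5′ to 3′ on the gene's strand, which is the plus strand for all 3. The 3 windows lie at chr8:46986637-46986886, chr11:100574689-100574938 and chr9:120149492-120149741. Capitals mark matches to ACAAAG or ACAATG on either strand, letters that SOX factors such as Sox10 are known to bind, and to CAGCTG, an E-box that Olig factors are known to bind.
Enpp6: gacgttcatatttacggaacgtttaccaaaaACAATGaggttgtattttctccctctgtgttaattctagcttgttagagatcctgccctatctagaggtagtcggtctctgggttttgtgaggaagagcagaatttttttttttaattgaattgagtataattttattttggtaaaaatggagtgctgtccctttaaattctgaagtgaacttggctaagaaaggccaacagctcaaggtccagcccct
Cnp: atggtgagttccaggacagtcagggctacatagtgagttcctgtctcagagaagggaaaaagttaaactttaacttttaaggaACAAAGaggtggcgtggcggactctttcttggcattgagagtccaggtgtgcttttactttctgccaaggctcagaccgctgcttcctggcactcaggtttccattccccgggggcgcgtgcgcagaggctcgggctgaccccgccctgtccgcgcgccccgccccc
Mobp: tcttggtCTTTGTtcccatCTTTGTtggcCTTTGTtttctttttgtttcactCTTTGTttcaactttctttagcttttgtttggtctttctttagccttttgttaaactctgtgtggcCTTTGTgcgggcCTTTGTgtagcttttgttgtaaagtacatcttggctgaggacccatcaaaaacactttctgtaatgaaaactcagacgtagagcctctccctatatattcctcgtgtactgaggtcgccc

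Promoter windows were found for 24 members, 33 windows in all, since some genes have several starts; a pair of windows overlaps in each of Gal3st1 and Mag, so a match there can be counted in both. ACAAAG was in 9 of the 33 windows (27.3 percent), against 16.5 percent of 32851 windows of the same length over all genes, and ACAATG in 8 (24.2 percent), against 10.7 percent. At least 1 of these SOX-type motifs was in 16 windows, 48.5 percent against 25.2 percent, and CAGCTG in 1, that of Aspa, against 13.0 percent. The windows shown above are all among those 16, and the window of Cldn11 is not. The letters ACAAAG and ACAATG cannot match the same bases. The Mobp window above held 6 matches to ACAAAG, all on the opposite strand, and was the only one of the 32851 windows with 6 or more. The cutoff of 6 equals the count in this window, so its rarity is no test. The stretch that holds the matches also repeats the like letters CTTTTGT. A match describes these letters in this window and is not a measured binding site.

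The remaining members, enzymes and receptors of oligodendrocytes, stayed short of the threshold in both models. Sirt2, a deacetylase of the myelin sheath, had signals of 1779 in 2afl/fl, 2074 in 2aECKO, 1282 in the 4-OHT control and 1511 in 2aiECKO, log2 folds of 0.22 and 0.24. It ranked 688 and 508 among all genes. Aspa, which cleaves N-acetylaspartate, had log2 folds of 0.03 and 0.21, like the myelin genes. Gpr37, a receptor of maturing oligodendrocytes, had 0.13 and 0.09, Qdpr, which recycles tetrahydrobiopterin, had 0.03 and 0.08, and Car2, a carbonic anhydrase also made by choroid plexus, had -0.06 in both.

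The members below the minimum signal are given as signals only, in the order 2afl/fl, 2aECKO, 4-OHT control and 2aiECKO. Opalin, a late oligodendrocyte glycoprotein, had 58.1, 55.3, 24.0 and 24.0. Ermn, a cytoskeletal protein of myelin, had 29.5, 27.8, 17.6 and 18.7, and Nkx6-2, a late differentiation factor, had 25.0, 23.9, 14.9 and 15.4. The gap junction genes Gjc3 and Gjb1 had 41.3, 39.2, 21.2 and 23.6, and 28.9, 32.9, 21.9 and 26.0. All of them were dimmer in the day 8 pair, where the scale itself is lower.

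**Figure D4:**
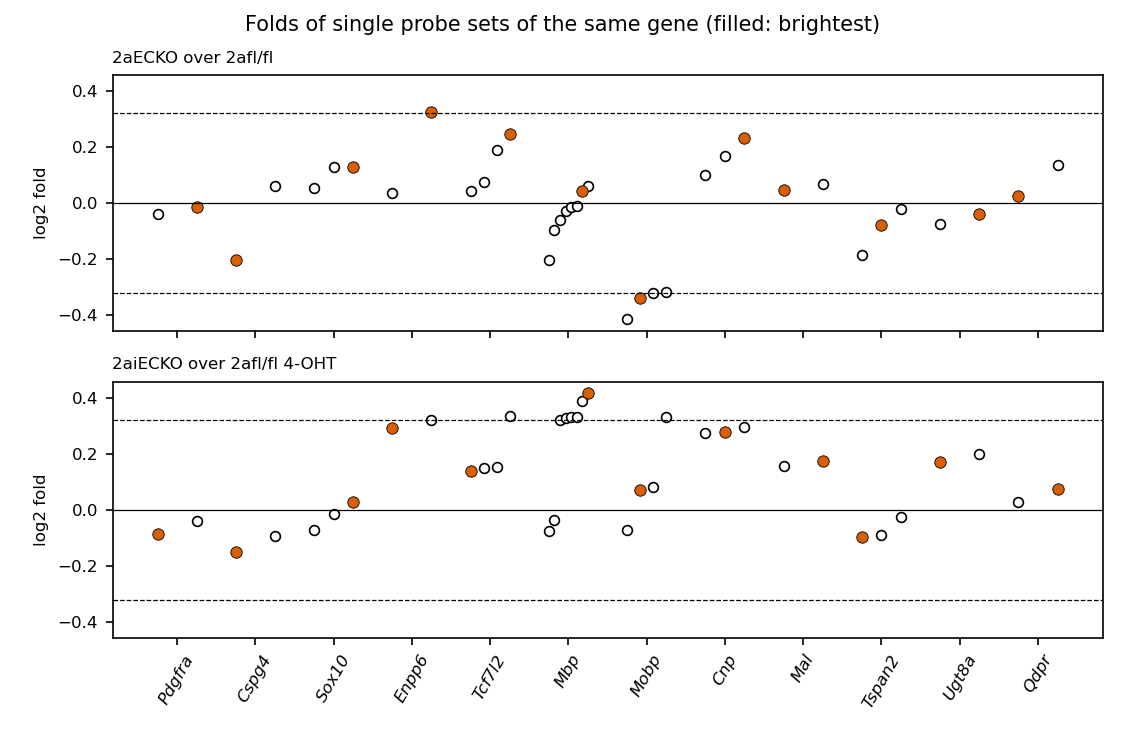
log2 fold of each probe set of mean signal of at least 50 for the 12 members that have more than 1 such probe set, in 2aECKO (upper panel) and 2aiECKO (lower panel); points of a gene are spread sideways for visibility, the filled point is the brightest probe set and dashed lines mark a difference of 25 percent. The 4 Mobp probe sets lie together below 0 in the upper panel, and 6 of 8 Mbp probe sets lie together near the upper dashed line in the lower panel.

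Probe sets of the same gene give the one repeated measurement on these arrays. Over the 12 members with several probe sets of sufficient signal, 37 probe sets in all, the pooled SD of the log2 fold between probe sets of a gene was 0.09 in 2aECKO and 0.12 in 2aiECKO. For 10 of the 12 members all probe sets had the same sign in 2aECKO, and for 9 they did in 2aiECKO. The members of mixed sign were Mbp and Cspg4 in 2aECKO, and Mbp, Mobp and Sox10 in 2aiECKO. This spread covers the probe sets on 1 array and not the differences between animals or pools.

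Among the 26 members of sufficient signal the control pools differed most in Mobp, Cldn11 and Mbp. Quantile normalization over all 4 arrays put the pairs on 1 scale. On it the log2 difference of the day 9 control minus the day 8 4-OHT control had a median of 0.13 over the 26 members. Over the 10 myelin genes the median was 0.48. For all genes the median was -0.06 and the robust SD 0.24, wider than for the folds within pairs. Of the 26 members 22 were above 0, against 40.0 percent of all genes. By the same rule for calls 9 were higher in the day 9 control, against 7.94 percent of all genes, and 0 were lower, against 14.6 percent. The committed genes had a median of 0.02, with 2 of 4 above 0. The 20 other genes of myelinating cells had one of 0.04, with 12 above 0, 2 called higher and 2 lower. On the same scale Xist, expressed from the inactive X of females, had signals of 3570 in 2afl/fl, 3986 in 2aECKO, 1933 in the 4-OHT control and 2292 in 2aiECKO, and the Y-linked Eif2s3y had 76.6, 88.9, 277 and 256. Before quantile normalization the sorted signals of the control arrays differed by up to 0.79 in log2, against 0.07 and 0.05 within the pairs. Age, 4-OHT, the sex makeup of the pools and any separate handling of the pairs cannot be told apart in the control difference. This difference shares its arrays with the folds of both models.

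Mobp had signals on this common scale of 223 in 2afl/fl, 173 in 2aECKO, 60.3 in the 4-OHT control and 62.7 in 2aiECKO. The day 9 control was 3.69-fold above the day 8 control, rank 2 of all 12426 genes. Cldn11 had 261, 246, 130 and 157, a 2.01-fold difference between the controls, rank 30. Mbp had 5132, 5337, 2978 and 3967, a 1.72-fold difference, rank 83. For Mbp and Cldn11 the 2aiECKO pool thus lay between the control pools, and the 2aECKO pool lay near the day 9 control.

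Ugt8a and Fa2h had log2 differences of 0.60 and 0.57 between the controls, Mag of 0.40, Nkx2-2 of 0.37, and Cspg4 and Sox10 of 0.35 each. Gal3st1 and Cnp, above their control in 2aiECKO, had 0.03 and 0.02. Other probe sets moved these values: that of Cspg4 gave -0.28, that of Ugt8a 0.34, those of Sox10 0.12 and -0.12, and those of Cnp -0.38 and -0.18. Of the committed genes Enpp6 had -0.16, Gpr17 -0.09, Tcf7l2 0.13 and Bcas1 0.21. The other probe set of Enpp6 gave 0.15, and the 4 of Tcf7l2 ran from 0.13 to 0.70.

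**Figure D5:**
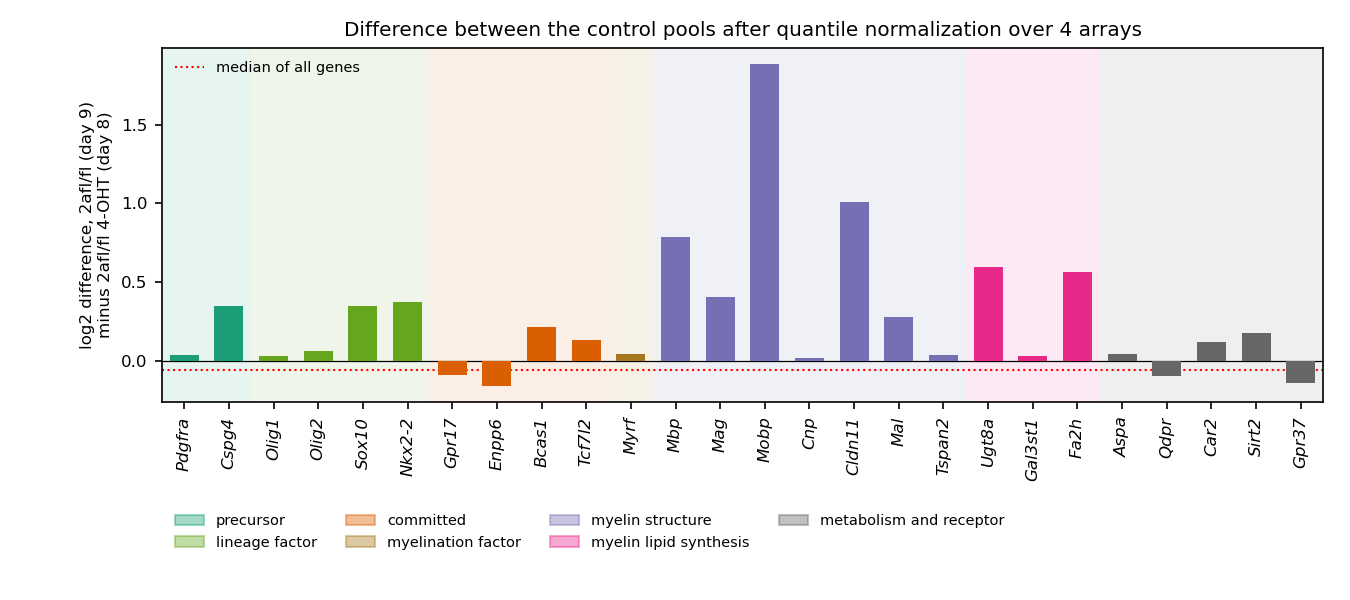
log2 difference of the day 9 control pool (2afl/fl) minus the day 8 control pool (2afl/fl 4-OHT) for each member after quantile normalization over the 4 arrays; colours mark the role of each gene and the red dotted line is the median of all 12426 genes, -0.06. Mobp (1.88), Cldn11 (1.01) and Mbp (0.79) have the tallest bars, while the committed genes lie between -0.16 and 0.21.

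Other genes of the lineage were read in lists kept apart from the members; the premyelinating list had the highest median of the 3 stages in 2aECKO and the myelinating list in 2aiECKO. Their counts stand against 2.04 and 1.77 percent of all genes called higher in 2aECKO and 2aiECKO, and 46.3 and 46.4 percent above 0. Of 16 other precursor genes, 11 were measured, with median log2 folds of 0.03 and 0.04, 7 of the 11 above 0 in each model, and 1 was called higher, in 2aECKO, while 0 were in 2aiECKO. The highest were Tnr, an extracellular matrix gene, with 0.34 and 0.26, Vcan, a proteoglycan gene, with 0.30 and 0.04, and Gpr37l1 with 0.10 and 0.17. The lowest were Ptprz1, a receptor phosphatase gene, with 0.00 and -0.11, Sox6, which holds precursors immature, with -0.01 and -0.07, and Zfp536 with -0.04 in both.

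Of 12 other genes of the premyelinating state 11 were measured, with medians of 0.14 and 0.09, 10 and 9 of them above 0, and 1 called higher in each model, against 2.04 and 1.77 percent of all genes. Cnksr3 had log2 folds of 0.24 and 0.45, Bmp4, a signal protein made by committed precursors, had 0.47 and 0.23, and Tns3, a focal adhesion gene, had 0.22 and 0.23. Bmp4 had signals of 178 in 2afl/fl, 246 in 2aECKO, 155 in the 4-OHT control and 181 in 2aiECKO, above the control in both models. The lowest were Rras2 with -0.17 in both, Fyn, a kinase that starts local Mbp translation, with 0.10 and 0.00, and Frmd4a with 0.12 and 0.00.

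Of 28 other genes of myelinating cells 20 were measured, with medians of 0.01 and 0.14, and 1 and 3 called higher, against 2.04 and 1.77 percent of all genes. In 2aECKO 11 of the 20 were above 0, near the 46.3 percent of all genes, and in 2aiECKO 14 were, against 46.4 percent. Apod, a lipocalin that binds lipids, had signals of 622, 996, 457 and 612 in 2afl/fl, 2aECKO, the 4-OHT control and 2aiECKO, with log2 folds of 0.68 and 0.42, and is also made by vascular and meningeal cells. Evi2a had 0.06 and 0.57, and Cmtm5 had 0.29 and 0.27. The third gene called higher in 2aiECKO was Plekhb1, named after its values were seen, with 0.20 and 0.32. The lowest were Tppp, a tubulin-binding protein gene, with -0.25 and -0.13, Josd2 with -0.10 and -0.25, and Anln with -0.31 and 0.06.

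Genes that restrain differentiation had medians near 0, 0.06 and 0.01 over 10 genes. In each model 1 was called higher, against 2.04 and 1.77 percent of all genes. It was the same gene in both, a state that 0.547 percent of all genes shared. That gene was Id4, which blocks bHLH factors and is also made by astrocytes, with signals of 1912, 2664, 1765 and 2215 and log2 folds of 0.48 and 0.33. Notch1 had 0.25 and 0.08 and Bmpr1a 0.12 and 0.18. Lingo1 had -0.20 and -0.16, Hes1 -0.13 and -0.16 and Tnfrsf21 -0.05 in both.

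Markers of other cells moved in these pools too. Over 10 astrocyte markers the median log2 folds were 0.27 and 0.30, 9 and 10 of them above 0, with summed signals of 21689, 24802, 15185 and 18362 in 2afl/fl, 2aECKO, the 4-OHT control and 2aiECKO. Gfap had 0.89 and 0.90, Aqp4 0.21 and 0.32 and Aldh1l1 0.29 and 0.22. Microglial markers, of which 8 were measured, had medians of -0.06 and 0.40, 4 and 7 above 0, with summed signals of 3747, 3849, 3256 and 4498. Cx3cr1 had 0.01 and 0.36, P2ry12 -0.36 and 0.26 and Tmem119 -0.46 and -0.14. The 8 ran from -0.46 to 0.31 in 2aECKO and from -0.14 to 0.69 in 2aiECKO. In 2aECKO 0 of the 8 were called higher and 2 lower, against 2.04 and 1.44 percent of all genes. In 2aiECKO 5 were called higher and 0 lower, against 1.77 and 0.523 percent. In 2aiECKO the microglial median was therefore above that of the myelin genes, and the part of either cell type in the values of the lineage genes was not tested.

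Neuronal markers were slightly below their controls, with medians of -0.09 and -0.05 over 10 genes, 2 and 1 above 0, and summed signals of 49819, 47258, 39342 and 37780. Snap25 had -0.04 and -0.02, Syt1 -0.08 and -0.04 and Rbfox3 -0.11 and -0.13. Endothelial markers had medians of 0.05 and -0.13 over 10 genes, 6 and 3 above 0, and summed signals of 3187, 3271, 2448 and 2346, with Pecam1 at -0.01 and 0.04, Cldn5 at -0.05 and -0.13 and Cdh5 at 0.04 and -0.13. Choroid plexus markers, 7 measured, all lay above 0 in both models, with medians of 0.24 and 0.17 and summed signals of 13241, 15307, 10948 and 12326. Ttr had 0.20 and 0.17, Folr1 0.27 and 0.05 and Kl 0.13 and 0.16, the last below the minimum signal. Car2, which choroid plexus also makes, did not share this and had -0.06 in both.

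Markers of tissue outside the cerebrum, hindbrain and peripheral nerve, were mostly dim. Of 10 hindbrain markers 9 were matched and 2 had sufficient signal, with median log2 folds of -0.04 and 0.19 over those 2 and summed signals of 307, 305, 222 and 236. Hoxa2 had signals of at most 5.76, Hoxa3 of at most 46.5 and Hoxb2 of at most 31.0. Schwann cell markers, 3 measured of 8, had medians of -0.08 and -0.09, 0 above 0 in either model, and summed signals of 925, 833, 673 and 639. Pmp2, a myelin lipid-binding protein of Schwann cells, had signals of 43.4, 42.9, 14.7 and 16.4. None of the matched markers of either list was at 0, which these signals cannot reach.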

How the data were processed

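Cerebrum RNA was measured in 4 pooled samples, 1 array each. As deposited, each value is a linear intensity from RMA: the authors corrected the background and normalized quantiles. The methods name the affy package in R and the submitters' processing notes Partek 6.6, and the values do not settle which was used. Signal distributions match within a pair and differ across pairs.

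Log2 of the intensity was taken. Of 45101 probe sets, 34958 have 1 gene symbol in the platform annotation, 932 have several and 9211 are unnamed here. Symbols were updated by gene identifier through RefSeq (GRCm38.p6). A gene was represented by its probe set of highest mean log2 signal, and kept at a geometric mean signal of at least 50. Calls needed a signal of 50 or more in the higher pool, at least 25 percent above the other pool. Promoter sequences came from the RefSeq table of the same build.

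The members and lists were chosen with earlier results of these data known. All matched members are named; of each other lineage list the 3 genes with the highest and the 3 with the lowest mean of the 2 folds; of each marker list the first 3. With 1 pooled array per group there was no test, and precision is limited by the number of arrays; Affymetrix signals give no read depth. The alternatives tried were a mean over each gene's probe sets, leaving out less specific probe sets (IDs ending in x_at, s_at or a_at) where the gene has another, a minimum signal of 100 or none, quantile normalization over 4 arrays, removal of a loess trend (fraction 0.3), a median fold set to 0 and a fold of 1.5. The steps were tested on simulated data. Python 3.11.15, numpy 2.4.6, pandas 2.3.3, statsmodels 0.14.6 and matplotlib 3.10.9 were used.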

Additional observations from a re-analysis of the deposited data

Results flagged for a closer look

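By the probe set that represents each gene, Mobp and Cldn11 had folds of opposite sign in the models and differed between them by at least 25 percent. For Mobp the log2 folds in 2aECKO and 2aiECKO were -0.34 and 0.07, a difference of -0.41. The fold of 0.07 was below the robust SD of all genes in 2aiECKO, 0.10, and came from signals of 48.5 and 51.0. Another Mobp probe set, of mean signal 104 against 106, gave -0.32 and -0.07, the same sign in both models. Of the 4 Mobp probe sets of sufficient signal 3 were above 0 in 2aiECKO, so the sign there depended on the probe set. For Cldn11 the log2 folds were -0.08 and 0.30, a difference of -0.38. The -0.08 was smaller in size than the robust SD in 2aECKO, 0.12. With 1 array per group the difference was not tested. Age, cre driver, 4-OHT, the sex makeup of the pools and the scale of the array pair differ together with the model.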

How the results depend on the processing

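No paired analysis was possible because each group has 1 pooled array, and no replicate could be left out. A median was counted as moved when it changed by more than the robust SD of all genes divided by the square root of its number of genes, a scale that is no replicate error; of 116 such comparisons of a main result with an alternative 102 stayed within it or, for counts, within 1.5 times, and none changed sign beyond it. With the mean of all probe sets the members higher were 1 instead of 3 in 2aECKO and 0 instead of 2 in 2aiECKO, the members lower in 2aECKO were 0 instead of 1, the committed median in 2aECKO was 0.17 instead of 0.29, and the member median of the control difference was 0.065 instead of 0.13. At a fold of 1.5 these counts of higher and lower members were 0. The control difference of the members was 0.17 with the loess trend removed and 0.19 with the median set to 0. That of the myelin genes, 0.48, became 0.57 with no minimum signal, 0.57 as deposited with the median of all genes removed and 0.56 with the loess trend removed. With no minimum signal the myelin median in 2aiECKO was 0.17 over 13 genes instead of 0.21 over 10. Alternatives for the committed and myelin medians were added after the data were seen. Of 260 comparisons for single members 5 moved by more than the robust SD, all with the mean of all probe sets: Cspg4 (-0.07), Enpp6 (0.18) and Bcas1 (0.25) in 2aECKO, and Bcas1 (0.29) and Mbp (0.25) in 2aiECKO. Leaving out less specific probe sets changed the probe set of Mal and Qdpr alone among the members of sufficient signal. For Mbp, Cnp, Sox10, Gal3st1, Fa2h and Sirt2, which have no other kind, it tested nothing.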
